A study of Mus musculus with 8 samples.

Results

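Purkinje cells and GABAergic interneurons are the inhibitory neurons of the cerebellum, and 9 genes that mark them were followed across mouse granule neuron precursors and medulloblastomas. Of these 9 genes, 8 were measured, each on the row whose annotation gave that symbol alone, among 14351 genes named in this way. They comprise 5 Purkinje cell genes (Pcp2, Calb1, Pvalb, Car8 and Rora) and 3 genes of GABA synthesis and storage (Gad1, Gad2 and Slc32a1), and each had 1 such row. Itpr1, the inositol trisphosphate receptor of Purkinje cells, was not analysed here because no row used here carried its symbol.

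RNA was measured on 8 whole-transcript arrays, 1 per sample. There were 4 medulloblastomas from adult mice that carried the conditional Rosa allele of FLAG-tagged Gli1 (RosaGli1-FLAG c/c), Math1-Cre and 1 targeted Ptch1 allele (Ptc+/-). There were 2 samples of granule neuron precursors (GNPs) from litters of RosaGli1-FLAG c/c mice crossed with Math1Cre. Their titles give them as Gli1FLAGCre+, so they carried the Cre, and they are called Gli1-FLAG GNPs here. Another 2 samples were GNPs from Ptc+/- mice, and both kinds were taken on postnatal day 8. The tumours shared the tagged Gli1 with one GNP group and the Ptch1 alteration with the other, and no sample without either alteration was analysed here. Tumours and GNPs also differed in age and in preparation, since GNPs were purified from dissected cerebella, so these cannot be told apart from the disease. Math1 (Atoh1) drives the Cre in the granule lineage, whereas Purkinje cells and cerebellar GABAergic interneurons descend from Ptf1a-expressing progenitors.

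Purkinje cells are the output neurons of the cerebellar cortex. They buffer large calcium signals with calbindin and parvalbumin, release GABA onto the cerebellar nuclei, and secrete Sonic hedgehog, the mitogen of GNPs. Interneurons of the molecular and granular layers also make GABA with the glutamate decarboxylases encoded by Gad1 and Gad2 and load it into vesicles with the transporter encoded by Slc32a1, and some of them contain parvalbumin. None of these genes is a marker of the granule lineage. In bulk RNA, fewer cells of a type and less RNA per cell cannot be told apart.

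Levels are given as log2(intensity + 1) after quantile normalization over the 8 arrays. Median deposited intensity per array ran from 109 to 310, so the arrays were not on a common scale before that step. No detection call accompanied the intensities, and a low value cannot be told from background. The percentile of a row within its own array is given as a guide. As a check of the samples, the GNP marker Atoh1 was at 11.99, 11.59, 11.63 and 10.84 in medulloblastomas 1 to 4, at 9.17 and 9.03 in the Gli1-FLAG GNPs and at 9.43 and 9.41 in Ptc+/- GNPs. Of 7 GNP markers, 2 rose against Ptc+/- GNPs (Atoh1 by 2.09 and Barhl1 by 0.94 on the log2 scale; limma, adjusted p = 0.008 and 0.0214). Another 3 fell, with log2 fold changes of -1.99 for Mfap4 (adjusted p = 0.0276), -1.38 for Pax6 (0.0373) and -0.59 for Meis1 (0.0277), and Zic1 and Zic2 did not pass.

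The 8 marker genes differed widely among the tumours, which spanned 2.43 to 6.34 log2 units from lowest to highest for each gene. The tumour mean differed from that of Ptc+/- GNPs by at most 2.86. A range of single arrays and a difference of means are not like measures, so they are not ranked here. For Pvalb all 4 tumours lay above every GNP array. Medulloblastoma 2 had the highest level of the 4 tumours for 8 of 8 genes and medulloblastoma 1 the next highest for 8 of 8. Over all rows, medulloblastoma 2 was highest in 22.6%, and that order of the leading pair was found in 9.28%. In medulloblastomas 3 and 4 the GABA genes lay below every GNP array, while several Purkinje genes lay at or above the GNP level. The share of all rows below every GNP array in those tumours was not counted. Pvalb alone among the 8 rose past the threshold, and it did so against Ptc+/- GNPs.

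**Figure D1:**
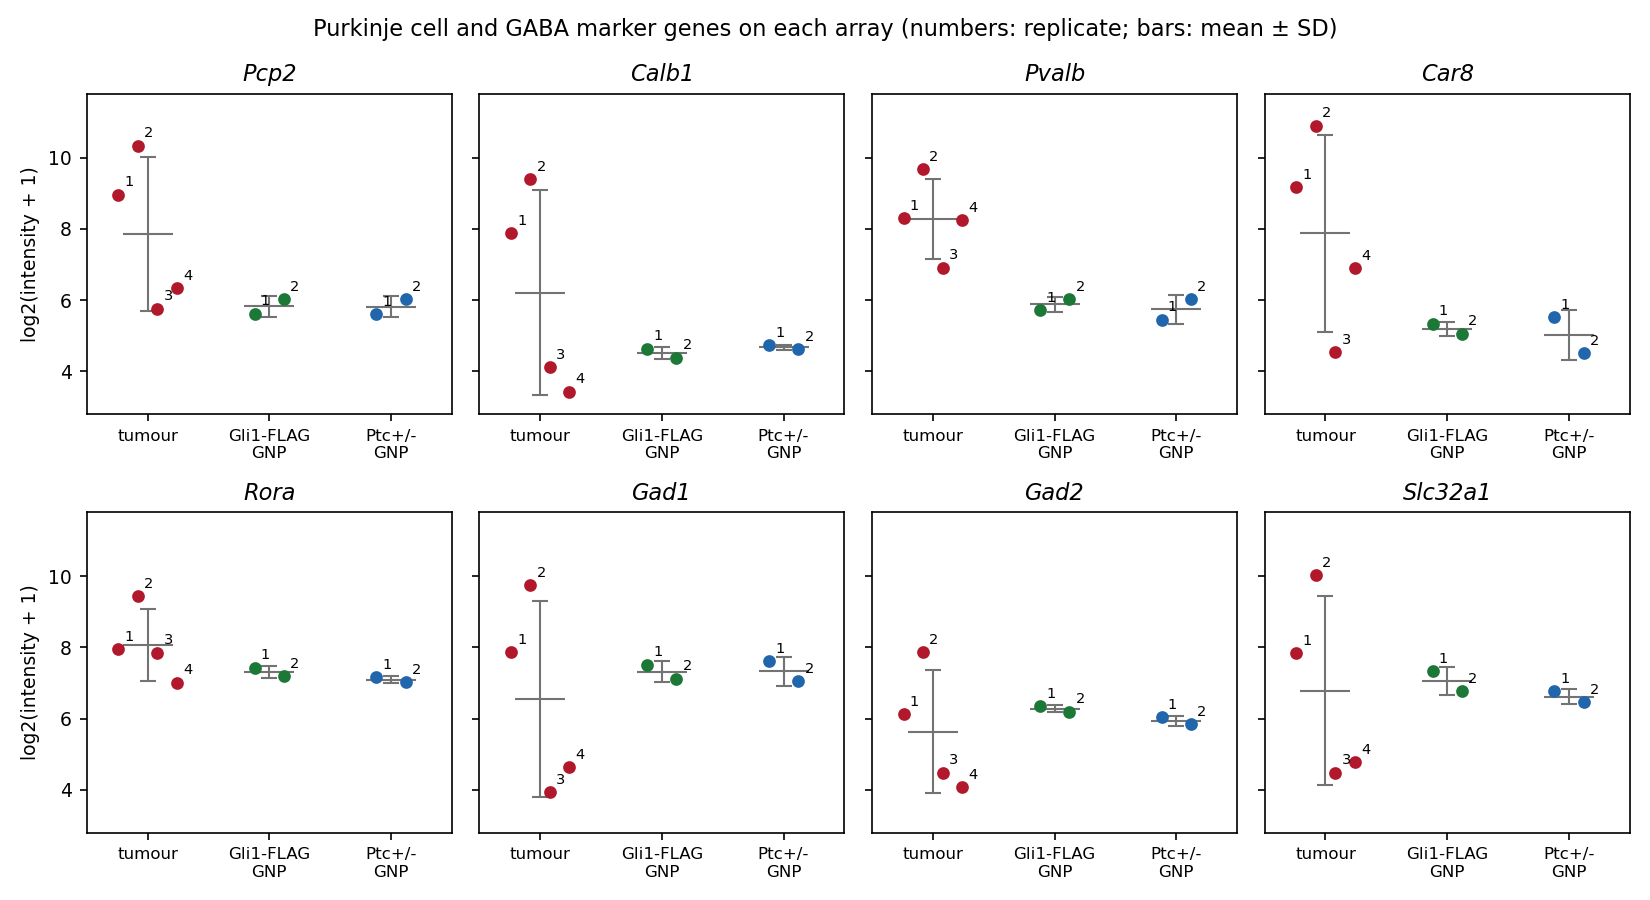
Log2(intensity + 1) of the 8 measured marker genes on each array (points, numbered by replicate), with the mean and SD of each group (bars), for tumours, Gli1-FLAG GNPs and Ptc+/- GNPs. Medulloblastoma 2 is the highest tumour in all 8 panels and medulloblastoma 1 the next, and the GNP arrays lie within 0.99 log2 units of each other for every gene.

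The marker genes shared the order of medulloblastomas 2 and 1 but not that of 3 and 4. Their promoters were read from RefSeq (GRCm38.p6), from 250 bases before to 50 bases after each annotated start. Of the 9 genes, 6 had entries (Pcp2, Pvalb, Rora, Gad1, Gad2 and Slc32a1, with 10 windows in all), and Calb1, Car8 and Itpr1 were without one. Both strands were searched for AGGTCA, the half-site bound by the receptor that Rora encodes, for TGGGTGGTC, the core of the Gli consensus, for CAGCTG, an E-box, and for TATAAA, the TATA box, none of which overlap in these windows. AGGTCA was found in 3 of the 10 windows, all of Pcp2 (windows 1 and 2 overlap and hold the same match), beside 16.3% of 32851 promoter windows in the table. TGGGTGGTC and CAGCTG were found in 0 of 10 windows, beside 0.253% and 16.3% of all windows. TATAAA was found in 1 window of Pcp2 and in that of Gad1, beside 13.6% of all windows. Shown are Pcp2, whose most upstream window holds AGGTCA from 12 bases before the start, and Pvalb, Gad1 and Slc32a1, which stand for the gene that rose and for the closest pair of GABA genes. Capitals mark the motif matches, read on either strand.
Pcp2 (chr8:3625498-3625797, minus strand): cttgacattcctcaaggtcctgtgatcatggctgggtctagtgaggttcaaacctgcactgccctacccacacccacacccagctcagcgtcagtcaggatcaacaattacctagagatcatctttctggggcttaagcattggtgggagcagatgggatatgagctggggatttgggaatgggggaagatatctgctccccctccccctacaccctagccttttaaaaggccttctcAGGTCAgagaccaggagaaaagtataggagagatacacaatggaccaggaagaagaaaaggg
Pvalb (chr15:78206351-78206650, minus strand): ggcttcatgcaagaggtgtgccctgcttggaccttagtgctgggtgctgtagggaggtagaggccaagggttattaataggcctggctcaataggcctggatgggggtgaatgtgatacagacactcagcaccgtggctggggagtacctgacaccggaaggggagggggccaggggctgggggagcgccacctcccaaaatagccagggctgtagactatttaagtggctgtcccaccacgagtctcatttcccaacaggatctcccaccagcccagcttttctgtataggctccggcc
Gad1 (chr2:70561879-70562178, plus strand): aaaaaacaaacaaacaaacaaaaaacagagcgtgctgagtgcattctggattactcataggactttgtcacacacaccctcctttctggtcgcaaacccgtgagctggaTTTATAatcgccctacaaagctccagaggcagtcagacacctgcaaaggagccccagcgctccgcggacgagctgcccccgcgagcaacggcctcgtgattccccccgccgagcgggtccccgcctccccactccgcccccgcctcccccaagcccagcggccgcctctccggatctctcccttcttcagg
Slc32a1 (chr2:158610508-158610807, plus strand): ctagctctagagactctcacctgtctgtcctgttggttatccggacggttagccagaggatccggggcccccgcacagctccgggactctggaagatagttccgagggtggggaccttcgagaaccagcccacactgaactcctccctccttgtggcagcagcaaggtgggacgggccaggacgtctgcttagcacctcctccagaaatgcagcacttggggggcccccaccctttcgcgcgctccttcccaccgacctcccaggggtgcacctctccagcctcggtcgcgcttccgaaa
Gad1 and Slc32a1 had the closest profiles of the 8 genes, and their windows share none of the 4 motifs. The window of Gad1 holds TATAAA on the opposite strand, from 141 bases before the start, and that of Slc32a1 holds none of the 4. GC content was 60.0% in Gad1, 63.3% in Slc32a1, 58.3% in Pvalb and 51.0% in Pcp2, beside a median of 52.7% over all windows. A match is a description of the letters, and binding was not measured.

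Pcp2 encodes a regulator of G protein signalling (L7) found in Purkinje cells and in retinal bipolar cells. It had log2 intensities of 8.96, 10.34, 5.76 and 6.34 in medulloblastomas 1 to 4, 5.62 and 6.03 in the Gli1-FLAG GNPs and 5.61 and 6.03 in Ptc+/- GNPs. Medulloblastomas 1 and 2 were far above the GNPs (8.82-fold and 22.8-fold over the mean of the 4 GNP arrays), medulloblastoma 4 slightly above them, and medulloblastoma 3 within their range. The mean difference from Ptc+/- GNPs was 2.03 ± 1.20 (log2 fold change, SE; limma, adjusted p = 0.281), with a 95% interval of -0.78 to 4.84. It was 1.22 without medulloblastoma 2 (adjusted p = 0.393) and 2.74 without medulloblastoma 3 (adjusted p = 0.124). On the deposited scale Pcp2 read 493, 1152, 44 and 150 in the tumours, 27 and 37 in the Gli1-FLAG GNPs and 64 and 37 in Ptc+/- GNPs.

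Calb1 encodes calbindin, the calcium buffer of Purkinje cells. It was at 7.88, 9.39, 4.13 and 3.43 in medulloblastomas 1 to 4, at 4.64 and 4.39 in the Gli1-FLAG GNPs and at 4.73 and 4.63 in Ptc+/- GNPs. Medulloblastomas 1 and 2 were above every GNP array, and medulloblastomas 3 and 4 were below every one, although medulloblastoma 3 was not below them with arrays centred on their medians in place of quantile normalization. The 4 GNP arrays lay between percentiles 14.3 and 18.5 of their arrays, near the dim end of the scale, and medulloblastoma 2 at 82.5. The difference from Ptc+/- GNPs was 1.53 ± 1.59 (SE; limma, adjusted p = 0.548). Leaving out medulloblastoma 2 gave 0.48 (adjusted p = 0.818), and leaving out medulloblastoma 3 or 4 gave 2.23 or 2.52 (adjusted p = 0.371 or 0.253). The tumours spanned 5.96 log2 units, and 4 of the 16317 rows had a larger SD among tumours.

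Pvalb encodes parvalbumin, a fast calcium buffer of Purkinje cells and of molecular layer interneurons. It was at 8.31, 9.68, 6.91 and 8.24 in medulloblastomas 1 to 4, at 5.72 and 6.03 in the Gli1-FLAG GNPs and at 5.45 and 6.03 in Ptc+/- GNPs. Each of the 4 tumours was above every GNP array, by 2.14-fold over the GNP mean in medulloblastoma 3 up to 14.6-fold in medulloblastoma 2. Pvalb averaged 8.28 ± 1.13 (SD, n = 4) in tumours, 5.88 ± 0.22 in the GNPs with Gli1-FLAG (n = 2) and 5.74 ± 0.41 in those with Ptc+/- (n = 2). It rose 5.84-fold against Ptc+/- GNPs (log2 fold change 2.55 ± 0.65, SE; limma, adjusted p = 0.0381). Against Gli1-FLAG GNPs the difference of 2.41 ± 0.65 missed the threshold (adjusted p = 0.0582). The call against Ptc+/- GNPs was lost without Ptc+/- GNP replicate 1 (adjusted p = 0.235) or 2 (0.125), either Gli1-FLAG GNP array (0.0714 for each), medulloblastoma 1 (0.0783) or medulloblastoma 4 (0.0569), and with only the arrays of both groups (0.0719). Without medulloblastoma 2, the highest array, it passed with a difference of 2.12 (adjusted p = 0.0335).

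Car8 encodes a carbonic anhydrase-related protein that has no enzyme activity and binds the inositol trisphosphate receptor in Purkinje cells. Its values were 9.18, 10.90, 4.55 and 6.90 in medulloblastomas 1 to 4, 5.34 and 5.06 in the Gli1-FLAG GNPs and 5.52 and 4.52 in Ptc+/- GNPs. Medulloblastomas 1, 2 and 4 were above every GNP array, by 16.8-fold, 55.2-fold and 3.45-fold over their mean, and medulloblastoma 3 was within the GNP range. On the deposited scale the tumour arrays read 578, 1706, 20 and 213, the Gli1-FLAG GNP arrays 22 and 18, and the Ptc+/- GNP arrays 59 and 12. This was the widest tumour range of the 8 genes, 6.34 log2 units, and the difference of 2.86 ± 1.54 from Ptc+/- GNPs did not pass (limma, adjusted p = 0.237). The difference was 1.89 without medulloblastoma 2 (adjusted p = 0.330), and 3.99 without medulloblastoma 3, where it passed (adjusted p = 0.0498).

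Rora encodes the orphan nuclear receptor whose loss in staggerer mice stops Purkinje cell maturation, and molecular layer interneurons express it too. It was at 7.96, 9.44, 7.85 and 7.01 in medulloblastomas 1 to 4, at 7.43 and 7.19 in the Gli1-FLAG GNPs and at 7.16 and 7.02 in Ptc+/- GNPs. Medulloblastomas 1, 2 and 3 were above every GNP array, and medulloblastoma 4 was about level with the lowest of them. Its tumour SD of 1.01 was the smallest of the 8 genes. The difference from Ptc+/- GNPs was 0.97 ± 0.57 (SE; limma, adjusted p = 0.278).

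The GABA genes lay below every GNP array in medulloblastomas 3 and 4 and, for Gad1 and Slc32a1, above every one in medulloblastomas 1 and 2. Gad1, which encodes the larger of both glutamate decarboxylases, was at 7.87, 9.75, 3.93 and 4.64 in medulloblastomas 1 to 4, at 7.52 and 7.12 in the Gli1-FLAG GNPs and at 7.61 and 7.05 in Ptc+/- GNPs. Medulloblastomas 3 and 4 were 10.5-fold and 6.43-fold below the GNP mean, medulloblastoma 2 was 5.37-fold above it, and medulloblastoma 1 lay just above the highest GNP array. The groups overlapped, and the difference from Ptc+/- GNPs was -0.78 ± 1.52 (SE; limma, adjusted p = 0.759). On the deposited scale Gad1 read 224, 777, 13 and 51 in the tumours, 118 and 83 in the Gli1-FLAG GNPs and 307 and 86 in Ptc+/- GNPs. In medulloblastomas 3 and 4 Gad1 lay at percentiles 9.9 and 17.5 of the arrays, near the dim end. Gad2 lay at 15.6 and 11.1 there, and Slc32a1 at 15.6 and 19.2. Such values cannot be told from background, so the size of the folds below the GNP mean is uncertain.

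Gad2, which encodes the smaller form of the enzyme, found at synaptic terminals, was at 6.12, 7.86, 4.49 and 4.08 in medulloblastomas 1 to 4, at 6.35 and 6.20 in the Gli1-FLAG GNPs and at 6.04 and 5.84 in Ptc+/- GNPs. Medulloblastoma 1 was within the GNP range, medulloblastoma 2 above it, and medulloblastomas 3 and 4 below it. The difference from Ptc+/- GNPs was -0.30 ± 0.96 (SE; limma, adjusted p = 0.855), and 0.02 with arrays centred on their medians, so its direction turns with the scaling.

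Slc32a1, which encodes the vesicular GABA transporter, was at 7.84, 10.03, 4.49 and 4.79 in medulloblastomas 1 to 4, at 7.34 and 6.78 in the Gli1-FLAG GNPs and at 6.77 and 6.47 in Ptc+/- GNPs. Medulloblastomas 1 and 2 were above every GNP array and medulloblastomas 3 and 4 below every one. The difference from Ptc+/- GNPs was 0.17 ± 1.46 (SE; limma, adjusted p = 0.949), and it was -0.91 without medulloblastoma 2 (adjusted p = 0.557) and -0.18 without medulloblastoma 1 (adjusted p = 0.954).

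**Figure D2:**
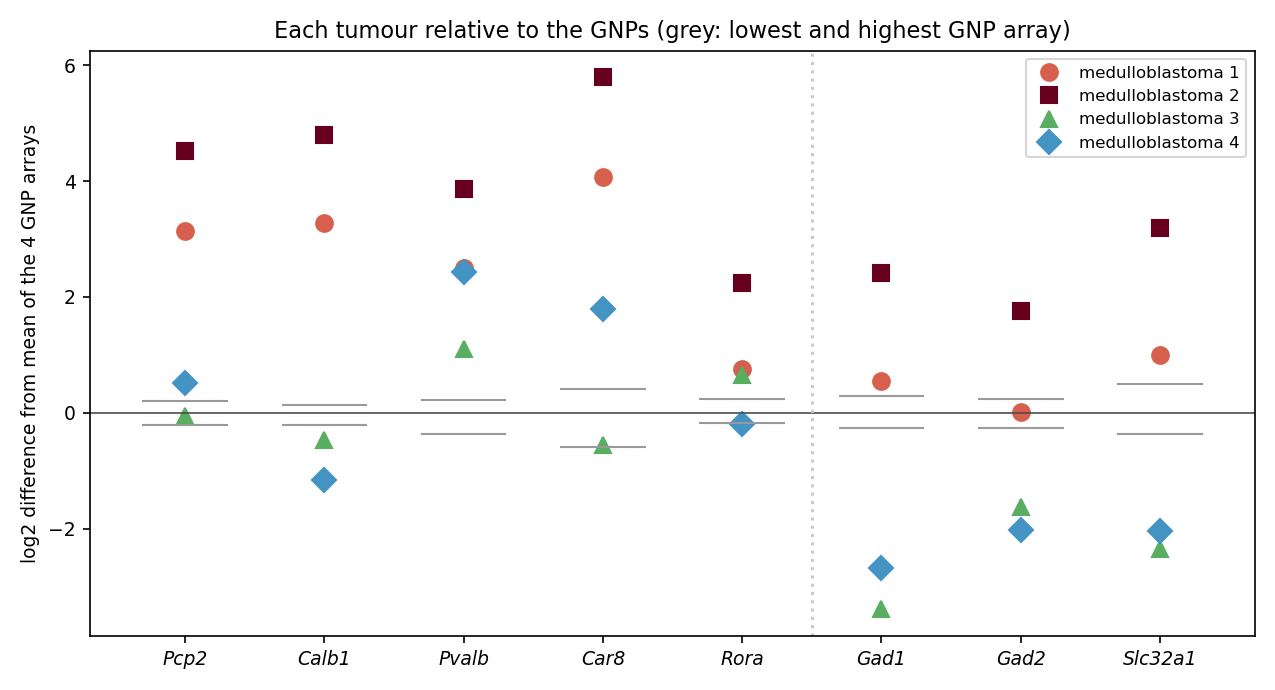
Log2 difference of each tumour from the mean of the 4 GNP arrays for the 5 Purkinje cell genes (left of the dotted line) and the 3 GABA genes (right), with grey lines at the lowest and highest GNP array. Medulloblastomas 3 and 4 lie at 1.10 and 2.43 for Pvalb, and between -3.39 and -1.62 for the GABA genes.

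Medulloblastoma 4 held both directions at once. Its Pvalb and Car8 were 5.40-fold and 3.45-fold above the GNP mean, while its Gad1, Gad2 and Slc32a1 were 6.43-fold, 4.09-fold and 4.15-fold below it and its Calb1 2.25-fold below. In medulloblastoma 3, Pvalb was 2.14-fold and Rora 1.56-fold above the GNP mean, and Gad1, Gad2 and Slc32a1 were 10.5-fold, 3.06-fold and 5.10-fold below. In medulloblastoma 2 each of the 8 genes was above every GNP array, by 3.37-fold for Gad2 up to 55.2-fold for Car8 over the GNP mean. The share of all rows above every GNP array in that tumour was not counted. The folds depend on the scaling between arrays, and those below the GNP mean rest on values near the dim end. The order of medulloblastomas 2 and 1 held for 8 of 8 genes under each of 3 other settings (median centring, cyclic loess and an offset of 16).

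The design text names tumours against Ptc+/- GNPs as the differential comparison. Of 8 measured genes 1 rose (Pvalb), 0 fell and 7 did not pass, which is 12.5% called, beside 16.5% of all 16317 rows (7.54% rising, 8.92% falling). The share is not above that of the array as a whole. The median log2 fold change was 1.25 over the 8 genes and 2.03 over the 5 Purkinje genes, beside 0.01 over all rows. All tumour arrays lay above both Ptc+/- GNP arrays for 1 gene (Pvalb), where 19.9% of all rows did, and below them for 0 genes, where 22.1% of all rows did (42% in either direction). Against Gli1-FLAG GNPs 0 of 8 passed in limma's fit, beside 10.3% of all rows (4.65% rising, 5.63% falling). At an unadjusted p under 0.05 there was 1 of 8 (Pvalb), beside 4609 of all 16317 rows. Of the 8 genes, 1 (Pvalb) lay above with no overlap and 0 below, beside 19.6% and 21.4% of rows (41% in either direction). These comparisons share the tumour arrays, so they are not independent.

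**Figure D3:**
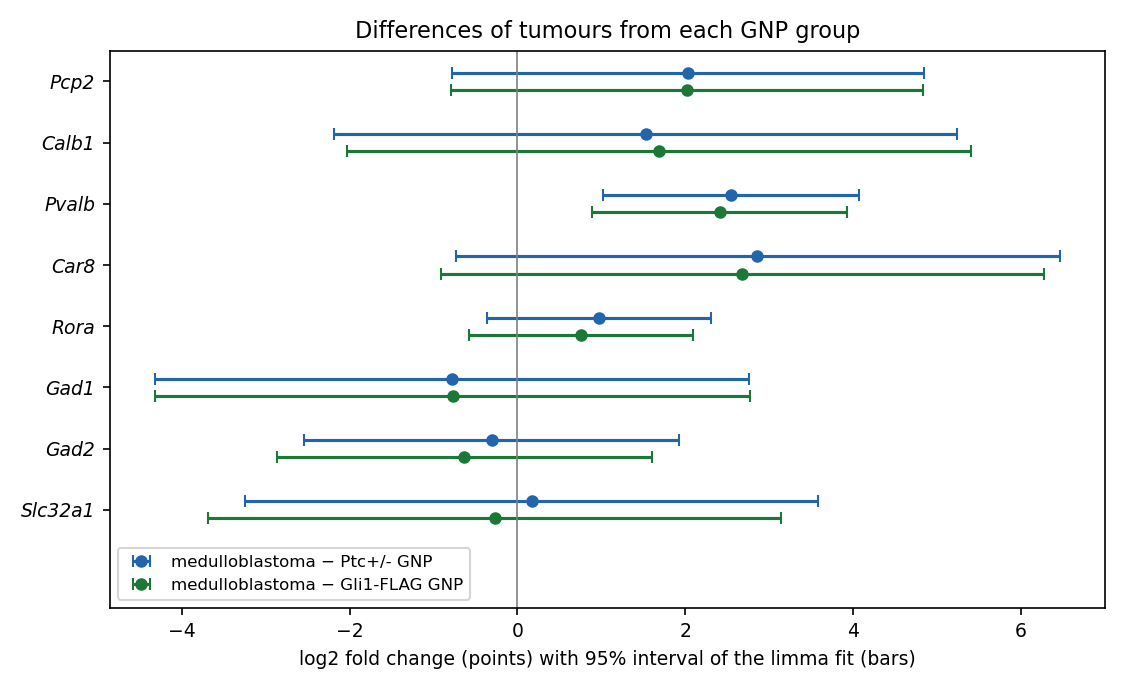
Log2 fold change of the tumours against Ptc+/- GNPs (blue) and against Gli1-FLAG GNPs (green) for the 8 genes, with the 95% interval of the limma fit. The interval of Pvalb runs from 1.02 to 4.07 against Ptc+/- GNPs, and its interval against Gli1-FLAG GNPs (0.89 to 3.93) also lies above 0, although the adjusted p there is 0.0582. Those of the other 7 genes include 0 in both comparisons.

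Between the GNP genotypes 0 of 8 genes passed in limma's fit, 0 had an unadjusted p under 0.05, and 0% of all rows were called (525 rows had an unadjusted p under 0.05). With array weights per group, which let the GNP groups have their own spread, 0 of 8 passed as well. The group means of the 8 genes differed by 0.44 log2 units or less, with Slc32a1 farthest apart (7.06 ± 0.39 in the Gli1-FLAG GNPs, and 6.62 ± 0.21 in Ptc+/- GNPs, SD, n = 2 each). For Rora, Gad2 and Slc32a1 both Gli1-FLAG arrays lay above both Ptc+/- arrays, 3 of 8 genes beside 22.3% of all rows, and for 0 genes they lay below, beside 24% of rows (46.3% in either direction). The shared spread of the fit is set largely by the tumours, and its interval for Slc32a1 ran from -3.51 to 4.38, so a genotype difference of several-fold was not detectable here. Ordered by group mean, Pcp2, Pvalb, Car8 and Rora were highest in tumours, then Gli1-FLAG GNPs, then Ptc+/- GNPs. For Calb1 the GNP groups changed places. Gad1 and Gad2 were lowest in tumours, and Slc32a1 was highest in Gli1-FLAG GNPs. Among these orders the step between tumours and Ptc+/- GNPs for Pvalb was the one that passed the threshold.

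The spread among tumours was large for these genes and for some genes of other lists. The members' tumour SD ran from 1.01 for Rora to 2.88 for Calb1 with a median of 2.40, beside a median of 0.299 over all rows. Fewer than 10 rows had a larger tumour SD than Calb1 (4 rows), Car8 (7) or Gad1 (8), and 10 rows had one larger than Slc32a1. Rora, the steadiest, was at percentile 95.3 of all rows. Some markers of other cells spread as widely: the tumour SD was 2.86 for Fabp7 (Bergmann glia), 2.77 for Slc17a7, 2.52 for Vsnl1 and 2.44 for Cbln3 (mature granule neurons), and 2.54 for Mbp (myelin). Others of these lists did not, with 0.51 for Neurod1, 0.50 for Rbfox3 and 0.48 for Cntn2 (mature granule neurons) and 0.52 for Opalin (myelin). Opalin lay between 3.70 and 4.89 in the tumours, near the dim end, where a flat value cannot be told from background. The other measured myelin markers had tumour SDs from 1.51 (Cnp) to 2.54 (Mbp). Microglia markers were at 0.91 or less. In the GNPs the 8 marker genes had an SD over the 4 arrays of 0.14 for Calb1 to 0.43 for Car8, which was not set beside that of all rows. Calb1 lay near the dim end of those arrays, where a flat value cannot be told from background.

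By root mean square difference between row-centred profiles over the 8 arrays, Gad1 and Slc32a1 were each other's nearest at 0.43, and Gad2 was nearest to Slc32a1 at 0.65. Pcp2 and Calb1 were each other's nearest at 0.62, Car8 and Pvalb were nearest to Pcp2 at 0.75 and 0.83, and Rora to Gad2 at 0.85. Pvalb and Gad1 were the farthest apart, at 2.00. Among other named genes, those most like Pcp2 were Rasgrf1 (0.26), Inpp5j (0.26) and Etnppl (0.34), and those most like Calb1 were Fam107a (0.50), Tmem130 (0.57) and Crtam (0.59). Tesc (0.41), Rap1gap (0.46) and Thy1 (0.48) were nearest to Pvalb, Rit2 (0.67), Faim2 (0.82) and Rasgrf1 (0.82) to Car8, and Dagla (0.14), Pdk2 (0.18) and Rell2 (0.18) to Rora. Cnnm1 was the nearest gene to both Gad1 (0.41) and Slc32a1 (0.40). The myelin basic protein gene Mbp (0.46) and Hopx (0.63) followed for Gad1, and St8sia5 (0.44) and Aldh1a1 (0.54) for Slc32a1. Pip5k1b (0.26), Gpr37 (0.27) and Rcan2 (0.28) were nearest to Gad2. All of these profiles share the same 8 arrays.

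Of 15 other measured Purkinje cell genes, 0 rose and 1 fell against Ptc+/- GNPs, beside 7.54% of all rows rising and 8.92% falling (median log2 fold change 0.75). Medulloblastoma 2 was the highest tumour for 11 of the 15, with medulloblastoma 1 next for 9, beside 22.6% and 9.28% of all rows. The gene that fell was Lhx5, a LIM homeobox gene of early Purkinje cells and interneurons, at 4.12, 5.41, 4.02 and 4.29 in medulloblastomas 1 to 4, 7.90 and 7.97 in the Gli1-FLAG GNPs and 8.14 and 8.31 in Ptc+/- GNPs. Each tumour was below every GNP array (log2 fold change -3.77 ± 0.37, SE; limma, adjusted p = 0.0031 against Ptc+/- GNPs), and the call held on leaving out each of the 8 arrays. Against Gli1-FLAG GNPs it fell by 3.48 (adjusted p = 0.00436), a call that ended without replicate 1 (0.0693) or 2 (0.0617) of those GNPs. Chosen after its values were seen, Rgs8, a regulator of G protein signalling enriched in Purkinje cells, was at 7.52, 9.23, 6.27 and 4.92 in the tumours, 4.81 and 4.81 in the Gli1-FLAG GNPs and 4.99 and 4.92 in Ptc+/- GNPs (adjusted p = 0.207). Its order of tumours 2 and 1 was that of the 8 marker genes, as for 9 of the 15 in this list. For Foxp2, Ebf2 and Bcl11a of the same list, medulloblastoma 2 was the lowest tumour (7.36, 6.37 and 9.11).

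Of 12 other measured interneuron genes, 0 rose and 4 fell against Ptc+/- GNPs, beside 7.54% of all rows rising and 8.92% falling (median log2 fold change -0.93). Against Gli1-FLAG GNPs 0 rose and 3 fell, beside 4.65% and 5.63% of all rows (median log2 fold change -0.63). Those that fell are transcription factor genes of developing GABAergic cells or of neural progenitors. Pax2, which marks interneuron precursors, was at 5.81, 6.57, 6.09 and 5.73 in medulloblastomas 1 to 4, 7.75 and 7.92 in the Gli1-FLAG GNPs and 7.40 and 7.77 in Ptc+/- GNPs. It was lower in each tumour than in any GNP array, medulloblastoma 2 included (log2 fold change -1.53 ± 0.26, SE; limma, adjusted p = 0.0126 against Ptc+/- GNPs). Tfap2a fell by 3.21 (SE 0.52; adjusted p = 0.0114), Tfap2b by 3.38 (SE 0.88; adjusted p = 0.0402) and Neurog1 by 2.11 (SE 0.33; adjusted p = 0.0104). Leaving out either Ptc+/- array, which leaves 1 in that group, ended the calls of Pax2 and Tfap2a and most calls over all rows. The call of Neurog1 ended without replicate 1. Without replicate 1 or 2 the log2 fold change was -1.68 or -1.33 for Pax2, -3.27 or -3.04 for Tfap2a and -1.83 or -2.37 for Neurog1. Against Gli1-FLAG GNPs, leaving out either array of that group ended the calls of Pax2, Tfap2a and Neurog1 and most calls over all rows. The log2 fold change was then -1.86 or -1.69 for Pax2, -3.12 or -2.80 for Tfap2a and -2.18 or -1.78 for Neurog1. Tfap2b lost its call on leaving out any array but medulloblastoma 2 (0.0574 to 0.191) and with only the arrays of both groups (0.0749), and against Gli1-FLAG GNPs it missed the threshold (adjusted p = 0.0771).

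Of 7 measured genes of GABA transport and turnover, 1 rose and 0 fell against Ptc+/- GNPs, beside 7.54% of all rows rising and 8.92% falling. Slc6a11 encodes the GABA transporter GAT3, found mainly on astrocytes, and was at 8.91, 9.66, 9.87 and 10.33 in medulloblastomas 1 to 4, 7.84 and 7.55 in the Gli1-FLAG GNPs and 8.01 and 7.53 in Ptc+/- GNPs. It was above every GNP array in each tumour and highest in medulloblastoma 4, where Gad1 and Slc32a1 were low. It rose 3.79-fold against Ptc+/- GNPs (limma, adjusted p = 0.0176), a call lost without Ptc+/- GNP replicate 1 (adjusted p = 0.105) or 2 (0.109). Of 7 measured calcium signalling partners of the inositol trisphosphate receptor, 0 passed in either direction in limma's fit (0.31 median log2 fold change). Medulloblastoma 2 was the highest tumour for 7 of 7, with medulloblastoma 1 next for 2, beside 22.6% and 9.28% of all rows.

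Among 6 measured relatives of the marker genes, 1 rose and 1 fell against Ptc+/- GNPs, beside 7.54% of all rows rising and 8.92% falling. Car11, a carbonic anhydrase-related gene of the same family as Car8, was at 8.46, 9.24, 7.95 and 8.04 in the tumours, 6.47 and 6.63 in the Gli1-FLAG GNPs and 6.83 and 7.09 in Ptc+/- GNPs. Unlike Car8 it was above every GNP array in medulloblastoma 3 too, and it rose 2.76-fold against Ptc+/- GNPs (limma, adjusted p = 0.0324). Rorb, a paralog of Rora, was at 4.68, 5.49, 4.89 and 3.25 in the tumours, 6.40 and 6.11 in the Gli1-FLAG GNPs and 6.86 and 6.54 in Ptc+/- GNPs. It fell by 2.12 (SE 0.54; limma, adjusted p = 0.0387), and each tumour lay below every GNP array. With a Ptc+/- array left out, the adjusted p of Car11 was 0.205 or 0.117, with a Gli1-FLAG array left out 0.0650 or 0.0653, and without medulloblastoma 1 it was 0.0686. For Rorb the same omissions gave 0.227 or 0.138, 0.0725 or 0.0723, and 0.0759, and medulloblastoma 3 left out gave 0.0515. With only the arrays of both groups the adjusted p was 0.0656 for Car11 and 0.0741 for Rorb. Rorb missed the threshold against Gli1-FLAG GNPs (adjusted p = 0.0940).

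Markers of other cerebellar cells moved with the marker genes in some tumours. The summed normalized intensity of 5 Purkinje genes was 1877, 5381, 441 and 637 in medulloblastomas 1 to 4, 335 and 326 in the Gli1-FLAG GNPs and 303 and 303 in Ptc+/- GNPs. For the 3 GABA genes it was 530, 2137, 57 and 66 in the tumours, 424 and 320 in the Gli1-FLAG GNPs and 367 and 275 in Ptc+/- GNPs. The sum over 6 measured markers of myelinating oligodendrocytes was 1783, 4079, 218 and 349 in the tumours, 2722 and 3005 in the Gli1-FLAG GNPs and 1590 and 1655 in Ptc+/- GNPs, so it too was highest in medulloblastoma 2 and under the GNP range in medulloblastomas 3 and 4. Medulloblastoma 2 was the highest tumour for 6 of these 6 genes and for 6 of 9 markers of mature granule neurons, beside 22.6% of all rows. The mature granule neuron markers summed to 8602, 16353, 11436 and 4613 in the tumours, 10243 and 10413 in the Gli1-FLAG GNPs and 10916 and 11301 in Ptc+/- GNPs. No measured marker of any list was at 0 on any array.

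In the astrocyte and Bergmann glia list medulloblastoma 2 was the highest tumour for 5 of 7 genes and medulloblastoma 1 the next for 4 of them (Gfap, Aqp4, Hopx and Aldh1l1), while Fabp7 and S100b were highest in medulloblastoma 4. The order of the leading pair was absent from the oligodendrocyte progenitor and microglia lists, where medulloblastoma 2 was highest for 0 of 4 and 0 of 6 genes. Markers of oligodendrocyte progenitors (4 genes) summed to 1850 to 2968 in tumours, 865 to 889 in the Gli1-FLAG GNPs, and 750 to 793 in Ptc+/- GNPs, and those of microglia (6 genes) to 2605 to 5979, 1363 to 1577 and 1195 to 1456. Both were highest in medulloblastoma 4. Astrocyte and Bergmann glia markers (7 genes) summed to 2059, 3311, 283 and 3965 in medulloblastomas 1 to 4, 5142 and 5554 in the Gli1-FLAG GNPs, and 4690 and 3372 in Ptc+/- GNPs. Endothelial markers (6 genes) summed to 536 to 722 in tumours, 1866 to 1881 in the Gli1-FLAG GNPs, and 1242 to 3440 in Ptc+/- GNPs. Markers of nuclear and unipolar brush cells (5 genes) summed to 322 to 519, 847 to 932 and 1017 to 1101. GNP markers (7 genes) summed to 15390, 14416, 15053 and 10944 in the tumours, 14931 and 15380 in the Gli1-FLAG GNPs, and 14495 and 16642 in Ptc+/- GNPs. Against Ptc+/- GNPs 3 of 4 oligodendrocyte progenitor markers and 3 of 6 microglia markers rose, beside 7.54% of all rows. In the same comparison 4 of 6 endothelial markers, 3 of 7 GNP markers, 1 of 9 mature granule neuron markers (Cntn2) and 1 of 5 nuclear and unipolar brush cell markers (Eomes, log2 fold change -2.72; limma, adjusted p = 0.000902) fell, beside 8.92% of all rows, and 2 of 7 GNP markers rose. Of the myelin and astrocyte markers 0 passed in limma's fit, and 2 had an unadjusted p under 0.05, beside 5435 of all 16317 rows. What part these cell types have in the levels of the Purkinje and GABA genes was not tested.

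**Figure D4:**
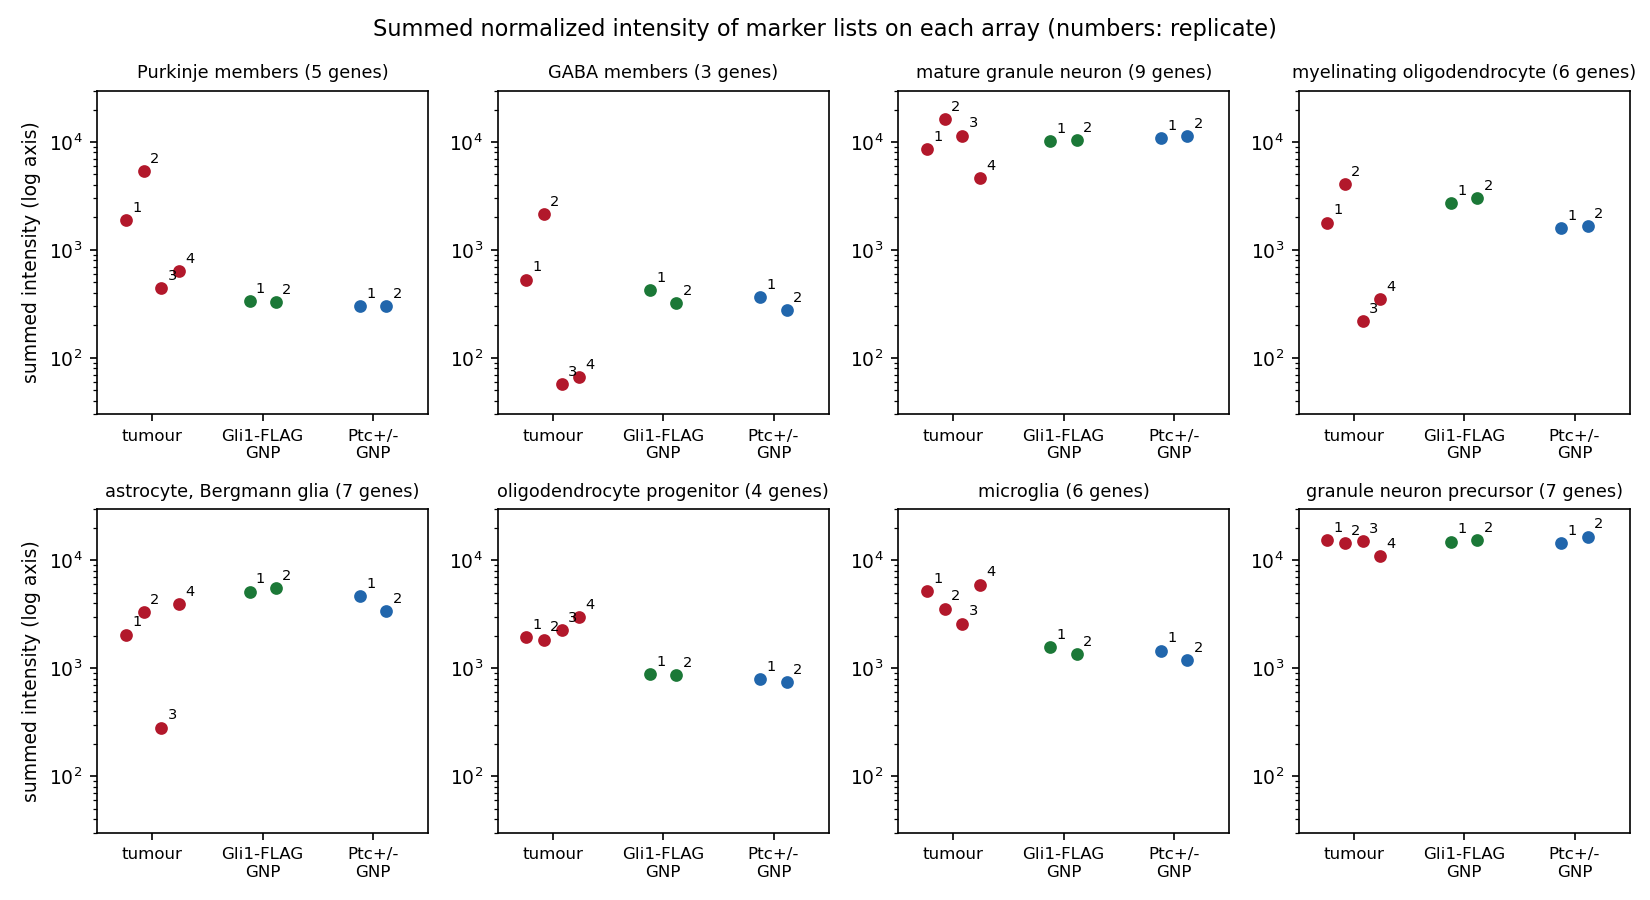
Summed normalized intensity (log axis) of the Purkinje and GABA genes and of 6 cell type marker lists on each array (points, numbered by replicate) for tumours, Gli1-FLAG GNPs and Ptc+/- GNPs. Medulloblastoma 2 is highest among tumours for the Purkinje genes (5381), GABA genes (2137) and myelin genes (4079), and the sum of GNP markers, whose members moved in both directions, lies between 10944 and 16642.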

How the data were processed

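Total RNA was reduced in ribosomal RNA, amplified, biotin-labelled and hybridised to Affymetrix whole-transcript arrays, per the labels' protocols. The deposited values are linear intensities per transcript cluster, as whole numbers. Build mm8 is named in the submitters' processing notes. How background was corrected and probes were summarised and scaled is not given in the sources used here. From these 16317 rows on 8 arrays, the value below 0 was set to 0, the arrays were quantile normalized, and log2(intensity + 1) was fitted with limma 3.58.1 (R 4.3.3), with 3 group means, lmFit and eBayes (2.45 prior and 5 residual degrees of freedom). A fold change is on that scale and understates changes of dim rows. Two-sided p-values were adjusted by Benjamini-Hochberg across the whole table and called at 0.05. The number of arrays limits the precision.

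The platform annotation gave 14551 rows 1 symbol, 1146 several and 620 none. The row with the highest mean stood for a gene. Members and lists were chosen with earlier results of these data known. Named beside the members were list genes that passed, at most 6 a list, and the 3 nearest profiles of each member. Rgs8, Foxp2, Ebf2, Bcl11a and several cell type markers were named outside that rule. The sample titles call the replicates biological, and nothing says whether they came from separate animals. The p-values measure the spread between samples, and how much of it is technical is not known. The fit was tested on simulated data. Replicate numbers did not pair the samples. Alternatives covered normalization, offset, a filter on dim rows, the variance model, array weights, the arrays fitted, the replicate block, each array left out, and 1 row per symbol.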

Additional observations from a re-analysis of the deposited data

How the results depend on the processing

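The count of members called against Ptc+/- GNPs was 1 in limma's fit, ran from 0 to 2 on leaving out each array, and was 0 with only the arrays of both groups. Against Gli1-FLAG GNPs it was 0, ran from 0 to 1 on leaving out each array, and was 1 (Pvalb) with arrays centred on their medians, cyclic loess, an offset of 16, dim rows left out, trend and robust settings, or array weights. Between GNP genotypes it was 0 under every alternative run. Samples share only a replicate number, with correlations of their deviations between -0.073 and 0.009. With a replicate block, to which medulloblastomas 3 and 4 contribute nothing as their numbers occur in no GNP group, 4 members passed against each GNP group (Pvalb, Calb1, Car8 and Pcp2). In that fit Slc6a11 lost its calls (adjusted p = 0.0618 against Ptc+/- GNPs and 0.0712 against Gli1-FLAG GNPs), as did Rorb against Ptc+/- GNPs (0.0544). The median tumour SD of the members ran from 1.81 without medulloblastoma 2 to 2.78 without medulloblastoma 1.

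Directions turned only for members that passed in neither setting. Against Ptc+/- GNPs the replicate block gave 1.48 for Gad1 and 1.05 for Gad2. Leaving out arrays gave -1.86 to 0.09 for Gad1, -1.04 to 0.23 for Gad2 and -0.91 to 0.93 for Slc32a1, and median centring turned Gad2 to 0.02. Against Gli1-FLAG GNPs the block gave 1.49, 0.71 and 1.88 for Gad1, Gad2 and Slc32a1, and leaving out arrays gave -1.85 to 0.09 for Gad1 and -1.37 to 0.49 for Slc32a1. Between GNP genotypes leaving out arrays gave -0.20 to 0.21 for Pcp2, -0.14 to 0.43 for Pvalb, -0.31 to 0.68 for Car8 and -0.28 to 0.27 for Gad1, and median centring turned Gad1 to 0.03. The cause of these changes was not tested. All rows called against Ptc+/- GNPs numbered 2687, and 128 or 460 without Ptc+/- GNP replicate 1 or 2, 1231 or 1227 without Gli1-FLAG GNP replicate 1 or 2, 1751 without medulloblastoma 1, and 1197 with only the arrays of both groups. Against Gli1-FLAG GNPs they numbered 1677, and 62 or 71 without Gli1-FLAG GNP replicate 1 or 2, 838 or 821 without Ptc+/- GNP replicate 1 or 2, 802 without medulloblastoma 1, 811 with only the arrays of both groups, 1066 with the block, and 3566 with array weights per group. Between genotypes they numbered 0 to 4. Centring arrays on their medians moved the median difference of all rows from Ptc+/- GNPs to 0.13, against 0.01 with quantile normalization. Dim levels, such as Calb1 in GNPs, cannot be told from background without a detection call.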
